A study of Mus musculus with 6 samples.

Results

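Fibroblast growth factors (FGF) and their receptors were described here in murine embryonic fibroblasts (MEF) of wild type (WT) and in those lacking TIA1 (TIA1 KO) or TIAR (TIAR KO). The 10 genes were the ligands Fgf1, Fgf2, Fgf5, Fgf7, Fgf10, Fgf13 and Fgf18 and the receptors Fgfr1, Fgfr2 and Fgfr3, chosen by name. They were read by 19 probes on 46 spots, out of 55681 probes and 34797 gene names on the array. Fgf7 was already known to be lower in TIAR KO MEF when the genes were chosen, so the values of the 10 genes in TIAR KO against WT MEF are given as a description, without a p-value.

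MEF are grown out of mouse embryos, and those studied were immortalized. Their RNA was labelled with a single dye and read on whole-genome mouse arrays, with 3 groups of 2 arrays from independent experiments. The groups were WT cells (background W4), cells with a knock-out of TIA1 (background BALB/c) and cells with a knock-out of TIAR, encoded by Tial1 (background C57BL/6). TIA1 and TIAR are RNA-binding proteins that act on splicing and translation. Each genotype had its own background and its own line, so that genotype, background and line cannot be told apart, and all 6 arrays lay on the same slide. Between 16021 and 26295 probes were rated well above background on an array. The lowest numbers were those of the TIA1 KO arrays (16021 and 19996), whose median raw spot intensities were 458 and 218, against 119 to 152 on the other 4 arrays.

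FGF ligands are secreted, with the exception of intracellular members such as Fgf13, and signal through receptor tyrosine kinases together with heparan sulfate. The activated receptor recruits adaptors such as Frs2 and drives the Ras and MAP kinase cascade, whose transcriptional targets include ETS factors and feedback inhibitors of the Sprouty family. Fgf7 and Fgf10 are made by mesenchyme and act on epithelia through the epithelial form of Fgfr2, and Fgf18 acts in skeletal and lung development.

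The 3 ligands that carried most of the differences were Fgf7, Fgf10 and Fgf18, and the 250 bases before the start of each are shown so that the loci can be compared. The sequences are those of RefSeq on GRCm38.p6, on the strand of the gene, 5′ to 3′, at chr2:126034408-126034657 (plus strand) for Fgf7, chr13:118714449-118714698 (plus strand) for Fgf10 and chr11:33147401-33147650 (minus strand) for Fgf18. Capitals mark the letters CCAAT or GGGCGG on either strand.
Fgf7: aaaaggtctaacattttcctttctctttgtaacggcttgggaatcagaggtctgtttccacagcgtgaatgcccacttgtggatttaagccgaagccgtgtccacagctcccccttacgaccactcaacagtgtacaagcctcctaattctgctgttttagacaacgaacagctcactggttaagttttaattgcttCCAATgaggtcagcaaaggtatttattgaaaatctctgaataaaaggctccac
Fgf10: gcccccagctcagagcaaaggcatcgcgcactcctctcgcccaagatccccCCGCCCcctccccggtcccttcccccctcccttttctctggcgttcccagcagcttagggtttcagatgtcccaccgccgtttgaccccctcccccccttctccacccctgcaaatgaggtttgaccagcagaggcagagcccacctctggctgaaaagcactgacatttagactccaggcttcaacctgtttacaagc
Fgf18: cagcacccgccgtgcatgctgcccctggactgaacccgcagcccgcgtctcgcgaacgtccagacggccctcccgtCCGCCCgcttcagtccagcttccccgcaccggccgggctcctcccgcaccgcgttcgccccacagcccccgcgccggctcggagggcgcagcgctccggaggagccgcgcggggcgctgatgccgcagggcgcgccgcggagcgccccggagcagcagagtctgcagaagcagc
The Fgf7 window was the least rich in G and C (43.6%), with 6 CpG, the Fgf10 window held 61.2% and 8 CpG, and the Fgf18 window 77.2% and 37 CpG. The median over 32851 windows of the same length was 52.4% and 6 CpG. CCAAT stood once in the Fgf7 window and in 33.8% of all windows, and GGGCGG once each in those of Fgf10 and Fgf18 and in 32.7% of all windows. TATAAA was in none of the 3 windows and in 12.4% of all. Windows were found for 8 of the 10 genes.

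Fgf7, also known as keratinocyte growth factor, was read by a single probe (mm9 chr2:125916134-125916193) that was well above background on all 6 arrays. Its normalized log2 intensity stood at 12.61 and 12.62 in WT MEF, at 14.09 and 14.28 in the TIA1 KO and at 7.90 and 7.90 in the TIAR KO. The arrays of each group lay close together and no groups overlapped. TIA1 KO was the highest and TIAR KO the lowest. The log2 difference of TIAR KO from WT was -4.71 ± 0.14 (SE, n = 2 arrays per group), a 26.2-fold lower intensity. In TIA1 KO MEF Fgf7 was up-regulated, by a log2 fold change of 1.57 ± 0.16 or 2.97-fold (limma, adjusted p = 0.0264). That test shares its WT arrays with the comparison in which Fgf7 was chosen, so its p-value is not independent of the choice.

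Fgf10, the closest relative of Fgf7 and a ligand of the same receptor form, was read by 1 probe placed on 10 spots (mm9 chr13:119580365-119580424). Its log2 intensity stood at 10.08 and 10.43 in WT MEF, at 10.15 and 10.65 in the TIA1 KO and at 7.85 and 7.93 in the TIAR KO. The WT and TIA1 KO arrays overlapped, and both TIAR KO arrays were below all others. TIAR KO was lower than WT by -2.36 ± 0.17 on the log2 scale, a 5.15-fold difference, whereas the log2 difference of TIA1 KO from WT was 0.15 ± 0.25 (adjusted p = 0.717). Over the 10 spots of a single array the log2 values spread with an SD of 0.139 to 0.570.

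Fgf18 was higher in both knock-outs. The brighter of its 2 probes, which overlap each other (mm9 chr11:33017440-33017499 and 33017474-33017533), read 7.87 and 7.67 in WT MEF, 10.03 and 10.02 in the TIA1 KO and 13.11 and 12.77 in the TIAR KO. The groups stood apart in that order. Relative to WT MEF, the log2 fold change was 5.17 ± 0.18 in TIAR KO MEF (36.0-fold) and 2.26 ± 0.16 in TIA1 KO MEF (4.79-fold, adjusted p = 0.0132).
The other Fgf18 probe was not well above background on the WT arrays, with 7.11 and 6.51, and read 8.23 and 8.56 in TIA1 KO and 12.34 and 11.85 in TIAR KO MEF. On it TIAR KO was at least 37.0-fold higher than WT. This approximate lower limit sets each WT array at the lowest level rated above background on it, or at the probe's own level where that was higher. The probe was above background on 1 of the 2 TIA1 KO arrays. Its fitted log2 difference of 1.58 ± 0.28 between TIA1 KO and WT MEF thus rests partly on levels near background, and it did not pass (adjusted p = 0.0711).

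**Figure D1:**
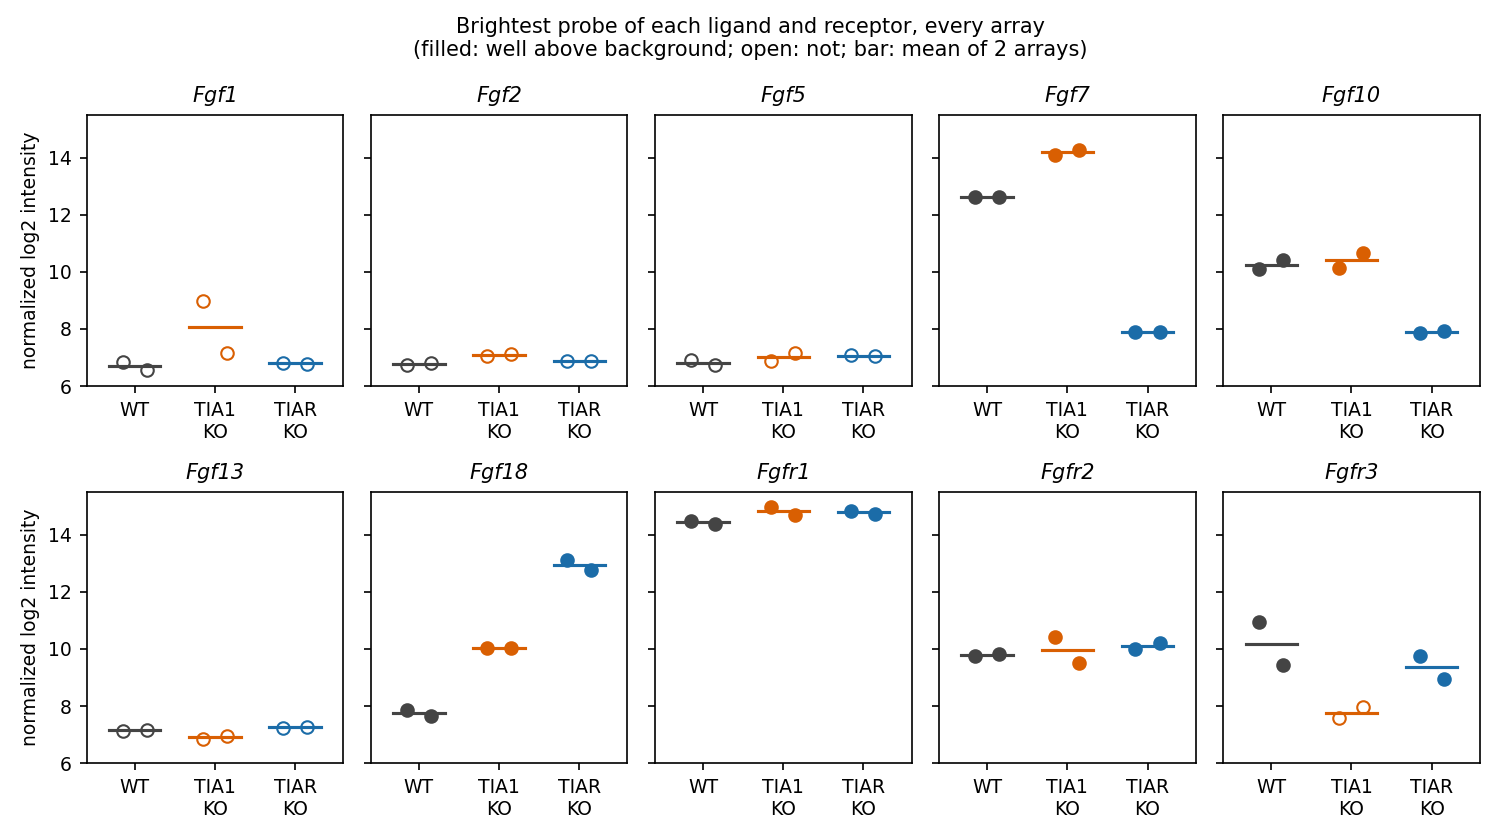
Normalized log2 intensity (vertical axis) of the brightest probe of each of the 10 genes on every array, by group; each point is 1 array, filled where the probe was well above background, and bars are means of 2 arrays. Fgf7 and Fgf10 were lowest in TIAR KO MEF (7.90 and 7.90; 7.85 and 7.93), Fgf18 was highest there (13.11 and 12.77), and Fgf1, Fgf2, Fgf5 and Fgf13 were open circles throughout.

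The other ligands gave little signal. Fgf2 (basic FGF), Fgf5 and Fgf13 were not well above background on any array. The brightest probe of Fgf2 lay between 6.72 and 7.11, that of Fgf5 between 6.73 and 7.17 and that of Fgf13 between 6.86 and 7.27. None passed in TIA1 KO against WT MEF (adjusted p = 0.26, 0.502 and 0.339). Fgf1 (acidic FGF) was read by 2 probes that disagreed. The brighter was not well above background on any array and read 8.99 in TIA1 KO replicate 1 against 6.56 to 7.15 on the other 5 arrays (TIA1 KO against WT 1.38 ± 0.65, adjusted p = 0.25, 0.45 without that array, and 2.30 with adjusted p = 0.0105 without replicate 2). The other probe was above background in TIAR KO MEF alone, with 7.72 and 7.70 against 6.60 and 6.67 in WT and 6.87 and 6.77 in TIA1 KO MEF, and was at least 1.72-fold higher in TIAR KO than in WT MEF.

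Fgfr1, a receptor of mesenchymal cells, was bright on every array. Its brightest probe (mm9 chr8:26685072-26685131) read 14.49 and 14.38 in WT MEF, 14.96 and 14.70 in the TIA1 KO and 14.84 and 14.74 in the TIAR KO. The log2 difference from WT was 0.40 ± 0.18 in TIA1 KO (adjusted p = 0.228) and 0.35 ± 0.14 in TIAR KO MEF. The former turned to -1.20 (adjusted p = 0.0451) when arrays were only scaled to a common median, which placed the median of all probes in that comparison at -0.68 in place of -0.09. A dimmer Fgfr1 probe read 0.48 ± 0.19 and a still dimmer one -0.85 ± 0.43 in TIA1 KO against WT, neither of which passed (adjusted p = 0.2 and 0.272).

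Fgfr2, the receptor of Fgf7 and Fgf10, was read by 2 overlapping probes that differed in TIA1 KO MEF. The brighter (mm9 chr7:137307473-137307532) read 9.74 and 9.81 in WT MEF, 10.41 and 9.50 in the TIA1 KO and 10.00 and 10.22 in the TIAR KO, so that TIA1 KO spanned both other groups. The other, placed on 10 spots (mm9 chr7:137307455-137307514), read 8.67 and 8.66 in WT, 8.77 and 8.85 in TIAR KO and only 7.09 and 7.81 in TIA1 KO cells, whose arrays did not rate it above background. The log2 differences of TIA1 KO from WT were 0.18 ± 0.35 (adjusted p = 0.746) and -1.21 ± 0.29 (at least 1.67-fold lower, adjusted p = 0.106). TIAR KO differed from WT by 0.34 ± 0.16 and 0.15 ± 0.14.

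Fgfr3, which restrains growth of cartilage, was the only one of the 3 receptors whose brightest probe left the range above background in a group. That probe (mm9 chr5:34079649-34079708) read 10.94 and 9.43 in WT, 9.76 and 8.96 in TIAR KO and 7.57 and 7.96 in TIA1 KO MEF. TIA1 KO was at least 4.58-fold lower than WT (log2 -2.43 ± 0.55), which did not pass (adjusted p = 0.1). The difference was -1.67 without WT replicate 1 and -3.18 without WT replicate 2, and it passed under 2 of 16 alternative settings, median scaling (-3.16) and all groups in 1 fit (adjusted p = 0.0487). The 2 WT arrays differed from each other by more than those of any other group. The dimmer probes gave -1.0 ± 0.23 (at least 1.28-fold lower, adjusted p = 0.0992) and -0.24 ± 0.34 (adjusted p = 0.649).

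**Figure D2:**
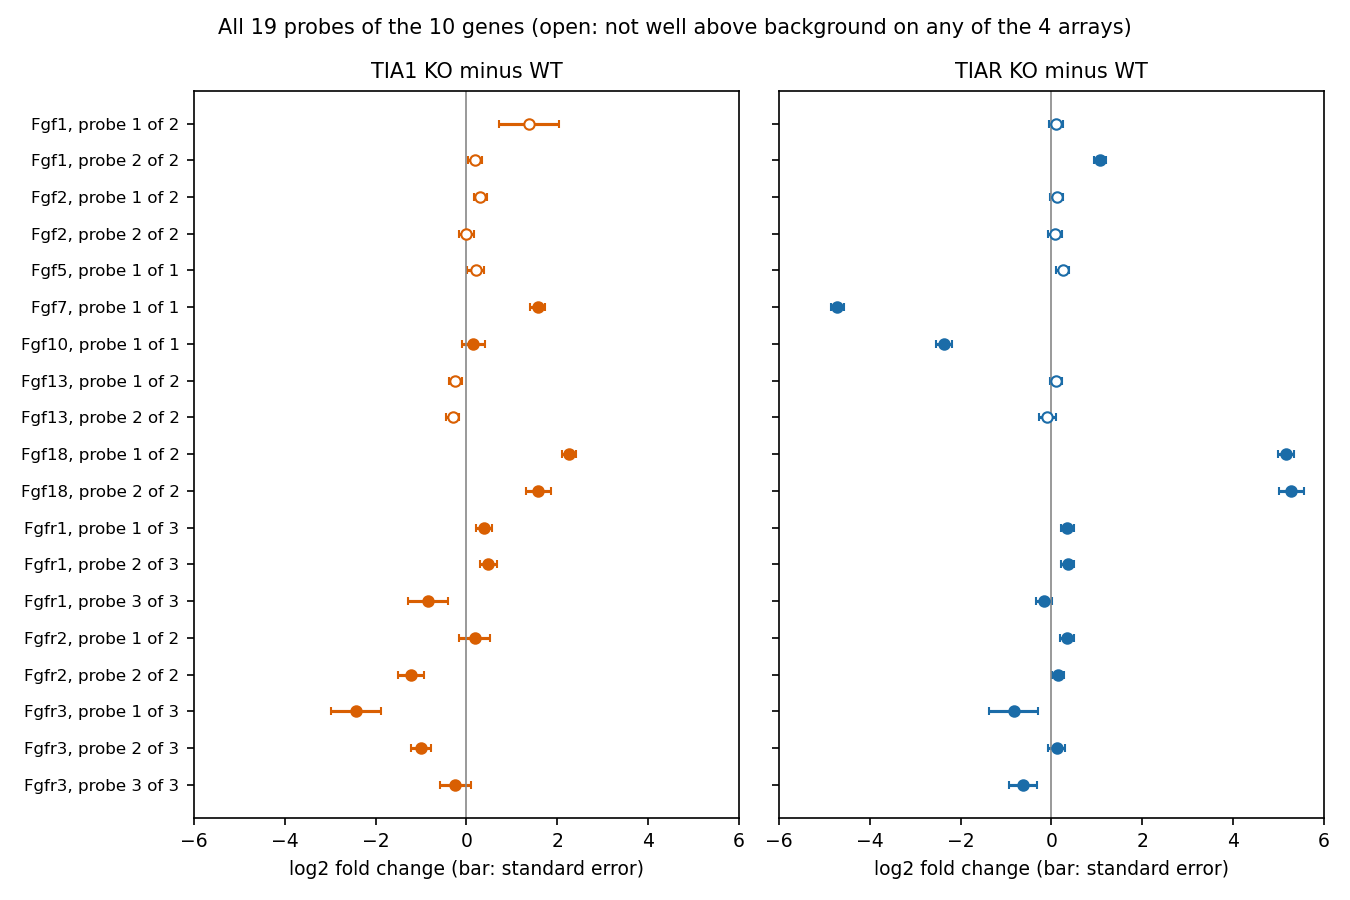
Log2 fold change (horizontal axis, bars: standard error) of all 19 probes of the 10 genes in TIA1 KO (left) and TIAR KO (right) against WT MEF; open circles mark probes not well above background on any of the 4 arrays. Fgf7 lies at 1.57 on the left and -4.71 on the right, both Fgf18 probes lie to the right of 0 in both panels, and the 2 Fgfr2 probes lie on opposite sides of 0 in TIA1 KO MEF.

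A gene was counted as up- or down-regulated at an adjusted p under 0.05 over all probes and a fold change above 2. In TIA1 KO against WT MEF 2 of the 10 genes passed, Fgf7 and Fgf18, both up-regulated, where 3.54% of all probes passed (2.18% up, 1.36% down) and 4.51% of gene names read by their brightest probe. In TIAR KO against WT MEF, the comparison in which Fgf7 was chosen, 3 of the 10 genes differed by more than 2-fold, Fgf18 up and Fgf7 and Fgf10 down; none was tested there and nothing is read from their number. In that comparison 5.76% of all probes passed (3.39% up, 2.37% down) and 7.18% of gene names. The median log2 fold change of the 10 genes was 0.26 for TIA1 KO and 0.11 for TIAR KO, against -0.09 and -0.02 over all probes. The 2 groups did not overlap for 7 of the 10 genes in TIA1 KO and 8 in TIAR KO against WT MEF, where the same was true of 65.2% and 49.0% of all probes. Both comparisons share the WT arrays, so that the call of Fgf7 in TIA1 KO MEF draws in part on arrays used in its choice. With arrays scaled to a common median, the balance of all calls turned to 1857 up and 14184 down in TIA1 KO and to 1403 up and 2776 down in TIAR KO MEF.

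The calls in TIA1 KO MEF rested on having both WT arrays: with replicate 1 or 2 left out no probe at all passed (7202 and 7415 had an unadjusted p under 0.05). The adjusted p was then 0.32 and 0.307 for Fgf7 and 0.249 and 0.263 for Fgf18, while the log2 fold change of Fgf7 stayed at 1.57. The single WT array left no spread of its own, and that of the TIA1 KO arrays was used for both groups. Without TIA1 KO replicate 1, the array with the brightest background, the log2 fold change was 1.67 for Fgf7 (adjusted p = 0.0249) and 2.26 for Fgf18 (adjusted p = 0.018). The rise of Fgf7 in TIA1 KO MEF was also sensitive to scaling: it was 0.09 (adjusted p = 0.891) with arrays scaled to a common median, 0.77 above the median of all probes, and 1.56 with the scanner's processed signal, 0.43 below the median of all probes (-0.43 relative to it). Fgf18 lost its call under the same scalings, with 1.14 (adjusted p = 0.0599) and 3.08 (adjusted p = 0.0587), and with the deposited log2 values, with 1.77 (adjusted p = 0.0528).

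TIAR KO and TIA1 KO MEF were also compared directly. Fgf7 was lower in TIAR KO by -6.28 ± 0.16 on the log2 scale, which is given without a test since the same TIAR KO arrays had led to its choice. Fgf10 was lower in TIAR KO than in TIA1 KO MEF by -2.51 ± 0.23 (adjusted p = 0.0216) and Fgf18 higher by 2.91 ± 0.19 (7.53-fold, adjusted p = 0.0113). With the replicate number fitted as a block, the log2 differences were the same and neither passed (adjusted p = 0.0846 and 0.0695). The other Fgf18 probe, above background on 1 of the 2 TIA1 KO arrays, gave 3.70 ± 0.25 (adjusted p = 0.012). Fgf10 and Fgf18 were the 2 that passed among the genes other than Fgf7, where 3.35% of all probes passed (1.72% higher, 1.63% lower) and 4.18% of gene names. Their tests used the TIAR KO arrays on which Fgf7 was known to be lower when the genes were chosen. The p-values of these genes are therefore descriptive, and nothing is read from their number. The balance of all calls was 7334 higher and 1082 lower with arrays scaled to a common median and 125 higher and 1384 lower with the scanner's processed signal. The groups did not overlap for 7 of the 10 genes and for 59.9% of all probes. None of the receptors passed, 1 having an unadjusted p under 0.05, with Fgfr1 at -0.04 ± 0.18 (adjusted p = 0.901). With TIAR KO replicate 1 or 2 left out no probe passed (6318 and 6402 had an unadjusted p under 0.05), and Fgf10 then had an adjusted p of 0.288 and 0.289. The log2 difference of Fgf10 was then -2.47 and -2.55, with the spread taken from the TIA1 KO arrays alone. Fgfr3 passed under 3 of 16 alternative settings, median scaling, only probes above background and TIA1 KO replicate 2 left out, and Fgf1 under the last of these.

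The other genes of the pathway were 64 genes, all with probes on the array, counted by role. In TIA1 KO against WT MEF 6 were up-regulated, 1 was down-regulated and 57 did not pass, where 3.54% of all probes and 4.51% of gene names passed. In TIAR KO against WT MEF 9 were up-regulated, 2 were down-regulated and 53 did not pass, where 5.76% of all probes and 7.18% of gene names passed. In a fit of probes above background alone, 12 of 46 pathway genes and 2949 of 23442 probes passed in TIA1 KO MEF. In TIAR KO MEF 13 of 47 pathway genes and 3336 of 25196 probes passed in such a fit. The median log2 fold change of the 64 genes was -0.14 and 0.03, near that of all probes (-0.09 and -0.02). With arrays scaled to a common median the balance turned in TIA1 KO MEF, to 4 up and 25 down, and stood at 8 up and 6 down in TIAR KO MEF. The calls in TIA1 KO MEF were again lost with either WT array left out, although Sulf1 (3.98 and 4.49), Sulf2 (4.19 and 4.09) and Hs6st2 (3.68 and 3.52) kept log2 fold changes of that size, and without TIA1 KO replicate 1 there were 10, Fgfrl1 not among them, and 20 without replicate 2.

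In TIA1 KO MEF, heparan sulfate genes held the most calls of the pathway lists. Of 10 such genes 3 were up-regulated in TIA1 KO cells and 4 in TIAR KO cells, and none was down-regulated, beside 2.18% and 3.39% of all probes up-regulated. All 10 were above background in a group compared, which most probes were not. In a fit of probes above background alone, 1319 of 23442 were up-regulated in TIA1 KO and 1942 of 25196 in TIAR KO MEF. With arrays scaled to a common median, Hs2st1 (-2.68), Ndst2 (-1.63) and Hspg2 (-1.22) were called lower in TIA1 KO MEF. Sulf1, Sulf2 and Hs6st2 were still called higher, and the median of all probes was -0.68. Hs2st1 passed as lower there under 4 of 15 alternative settings. Sulf1 and Sulf2 encode extracellular sulfatases that remove 6-O-sulfate from heparan sulfate, and Hs6st1 and Hs6st2 encode the sulfotransferases that add it. Sulf1 read 8.62 and 9.13 in WT MEF, 13.08 and 13.14 in the TIA1 KO and 11.49 and 11.17 in the TIAR KO. Its log2 fold change was 4.24 ± 0.23 in TIA1 KO (adjusted p = 0.00753) and 2.45 ± 0.23 in TIAR KO MEF (adjusted p = 0.00419). A dimmer Sulf1 probe gave 2.29 (adjusted p = 0.0276) and 1.19 (adjusted p = 0.0760). Sulf2 read 8.34 and 8.24 in WT MEF, 12.26 and 12.60 in the TIA1 KO and 9.66 and 10.15 in the TIAR KO. It rose by 4.14 ± 0.19 in TIA1 KO (adjusted p = 0.00576) and by 1.61 ± 0.21 in TIAR KO MEF (adjusted p = 0.0119). The rise of Sulf2 in TIAR KO MEF passed under 13 of 15 alternative settings, with log2 values from 1.37 to 1.87. Both sulfatases thus stood highest in TIA1 KO MEF, and both were lower in TIAR KO than in TIA1 KO MEF, Sulf1 by -1.78 ± 0.19 (adjusted p = 0.0284) and Sulf2 by -2.53 ± 0.25 (adjusted p = 0.0263). The former passed under 9 of 16 alternative settings, not on the dimmer probe (-1.10, adjusted p = 0.117), and with the scanner's processed signal it lay 0.19 above the median of all probes in that comparison.

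Hs6st2 read 10.10 and 9.94 in WT MEF, 13.53 and 13.71 in the TIA1 KO and 13.04 and 13.31 in the TIAR KO. It rose by 3.60 ± 0.17 in TIA1 KO (adjusted p = 0.00582) and by 3.15 ± 0.17 in TIAR KO MEF (adjusted p = 0.000739), and the log2 difference between the knock-outs was -0.45 ± 0.19 (adjusted p = 0.253). Hs6st1 rose by 1.52 ± 0.27 in TIAR KO MEF (adjusted p = 0.0314), with 1.12 ± 0.30 in TIA1 KO MEF (adjusted p = 0.121). Its dimmer probe gave 0.43 in TIAR KO MEF (adjusted p = 0.207), and the call passed under 10 of 16 alternative settings, not without WT replicate 1 (1.16, adjusted p = 0.0529) and not with either TIAR KO array left out (adjusted p = 0.115 and 0.149). The polymerase subunit gene Ext1 had 1.27 ± 0.23 in TIA1 KO MEF (adjusted p = 0.0737), and -0.34 with arrays scaled to a common median.

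Among 13 targets and feedback inhibitors, 1 rose and 1 fell in TIA1 KO and 2 rose and 2 fell in TIAR KO MEF, beside 3.54% and 5.76% of all probes called. With arrays scaled to a common median the balance turned in TIA1 KO MEF. Spry1 was then called higher, and Etv1, Etv4, Etv5, Dusp6, Spred1, Spred3 and Cbl lower. The ETS factor genes Etv4 and Etv5, which are switched on by FGF signalling in many tissues, were lower. Etv4 read 15.26 and 15.39 in WT MEF, 13.86 and 13.90 in the TIA1 KO and 13.39 and 13.22 in the TIAR KO. It fell by 1.45 on the log2 scale (SE 0.15, adjusted p = 0.0283) in TIA1 KO and by 2.02 (SE 0.15, adjusted p = 0.00205) in TIAR KO MEF. Its other probe gave -1.69 (adjusted p = 0.0271) and -2.12 (adjusted p = 0.00136). Etv5 fell by 1.04 in TIAR KO MEF (SE 0.19, adjusted p = 0.0377) and had -1.30 ± 0.21 in TIA1 KO MEF (adjusted p = 0.0595). The fall of Etv5 passed under 5 of 15 alternative settings and that of Etv4 in TIAR KO MEF under 16 of 16. In TIA1 KO MEF the fall of Etv4 passed under 11 of 16, with log2 values from -3.04 to -1.38. With the scanner's processed signal it did not pass there (adjusted p = 0.075).
Both feedback genes that rose encode inhibitors of the pathway. Spry1, a Sprouty inhibitor of receptor tyrosine kinase signalling, read 7.36 and 7.02 in WT MEF, 9.83 and 9.03 in the TIA1 KO and 11.51 and 11.47 in the TIAR KO. It rose by 4.30 ± 0.17 in TIAR KO MEF (19.7-fold, adjusted p = 0.000367), with 2.24 ± 0.33 in TIA1 KO MEF (adjusted p = 0.0527). Il17rd, also called Sef and a membrane inhibitor of FGF signalling, rose by 1.86 ± 0.22 in TIA1 KO (adjusted p = 0.0354) and by 2.80 ± 0.20 in TIAR KO MEF (adjusted p = 0.00161). The former passed under 7 of 15 alternative settings and was 0.58 (adjusted p = 0.328) with arrays scaled to a common median, the latter under 15 of 15. Dusp6, the MAP kinase phosphatase, did not pass in either (-1.0 ± 0.19, adjusted p = 0.0778, and -0.31 ± 0.18, adjusted p = 0.432).

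**Figure D3:**
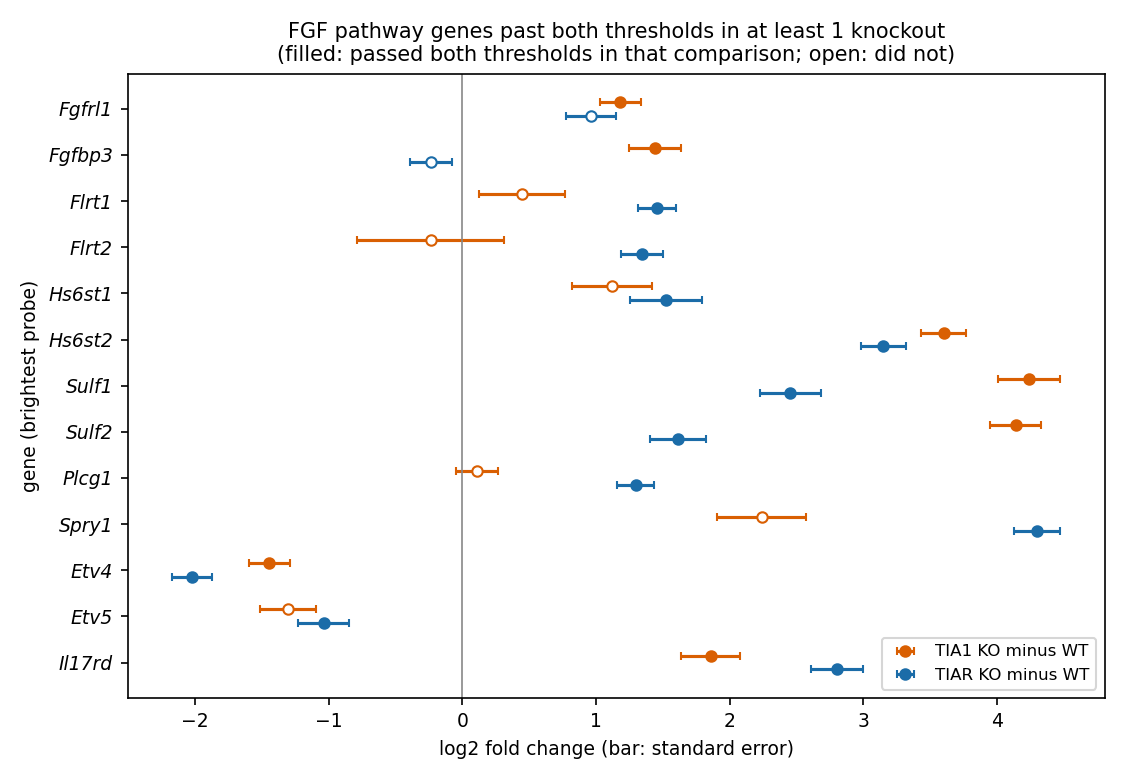
Log2 fold change against WT MEF (horizontal axis, bars: standard error) of the 13 other FGF pathway genes past both thresholds in at least 1 knock-out, read from their brightest probes; filled points passed in that comparison. Sulf1 and Sulf2 lie furthest right in TIA1 KO MEF (4.24 and 4.14), Spry1 in TIAR KO MEF (4.30), and Etv4 and Etv5 lie left of 0 in both.

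Of 7 co-receptors and binding proteins, 1 rose in TIA1 KO cells and 2 in TIAR KO cells, beside 2.18% and 3.39% of all probes. Fgfbp3, which encodes a protein that releases FGFs from the matrix, rose in TIA1 KO MEF by 1.44 ± 0.20 (adjusted p = 0.045) and was lower in TIAR KO than in TIA1 KO MEF by -1.68 ± 0.19 (adjusted p = 0.0325), with -0.23 ± 0.16 between TIAR KO and WT MEF (adjusted p = 0.513). Its rise passed under 8 of 15 alternative settings, was 0.33 (adjusted p = 0.598) with arrays scaled to a common median, and lay at -0.11 relative to the median of all probes with the processed signal. Flrt1 and Flrt2, membrane proteins that bind FGF receptors, rose in TIAR KO MEF by 1.46 ± 0.14 (adjusted p = 0.00465) and 1.34 ± 0.16 (adjusted p = 0.00886). The dimmer Flrt2 probe gave 0.72 (adjusted p = 0.0686), and the Flrt2 call passed under 10 of 16 alternative settings, not with either TIAR KO array left out (adjusted p = 0.0542 and 0.0562). Of the 2 other receptor genes, Fgfrl1, a receptor without a kinase domain, rose in TIA1 KO MEF by 1.18 ± 0.15 (adjusted p = 0.0419), a call that was lost without TIA1 KO replicate 1 (adjusted p = 0.0514) and a value that was -0.42 with arrays scaled to a common median, 0.26 above the median of all probes, and that lay at -1.14 relative to that median with the processed signal. In TIAR KO MEF Fgfrl1 stayed under the fold threshold (0.96 ± 0.19, adjusted p = 0.0427). Fgfr4, above background in TIAR KO MEF alone, was at least 1.66-fold higher there than in WT MEF and did not pass (adjusted p = 0.07). Its second brightest probe went the other way, with a log2 difference of -0.57.

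Of 17 adaptors and signal transducers, among them the genes of Ras, Raf and MAP kinases, none passed in TIA1 KO cells, where 7 had an unadjusted p under 0.05, and 1 passed in TIAR KO cells, near the share of all probes (5.76%). Plcg1, a phospholipase bound by the activated receptor, read 11.45 and 11.44 in WT MEF, 11.48 and 11.63 in the TIA1 KO and 12.72 and 12.76 in the TIAR KO. It rose by 1.30 ± 0.14 in TIAR KO MEF (adjusted p = 0.00623), and its dimmer probes gave 0.79 (adjusted p = 0.207) and 0.01 (adjusted p = 0.982). None of the 15 other ligands passed in either knock-out. At an unadjusted p under 0.05 there were 7 in the TIA1 KO and 1 in the TIAR KO, and 12 of the 15 were not above background on both arrays of either group compared. Fgf23 had 1.61 ± 0.42 in TIA1 KO MEF (adjusted p = 0.117) with a second probe at -0.36 ± 0.18 (adjusted p = 0.263). In the direct comparison of the knock-outs 4 of the 64 genes passed, near the share of all gene names (4.18%): Plcg1 was higher in TIAR KO MEF, and Fgfbp3, Sulf1 and Sulf2 were lower. The call of Plcg1 passed under 7 of 16 alternative settings and that of Fgfbp3 under 9 of 15. With arrays scaled to a common median Fgfbp3 was at -0.84 (adjusted p = 0.229), -1.46 relative to the median of all probes. With the processed signal it lay at -0.10 relative to that median.

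Markers of fibroblasts and of other cell types were read on the same arrays to check the labelled cell type. Of 10 fibroblast markers 6 were above background on all arrays (Col1a1, Col1a2, Col3a1, Pdgfrb, Vim and S100a4, the last the brightest), and 1, Lum, on none. By array, 6 and 8 of the 10 were above background in WT, 7 and 8 in TIA1 KO and 9 and 9 in TIAR KO MEF. The markers Pdgfra, Thy1 and Dcn read low in WT MEF (6.37 and 6.40, 6.63 and 6.98, 6.57 and 6.62), some of them still rated above background on replicate 2. They were bright in TIAR KO MEF (11.68 and 11.51, 14.84 and 14.74, 15.67 and 15.82). Of the 10, 6 rose in TIA1 KO cells, 7 in TIAR KO cells, and none fell, beside 2.18% and 3.39% of all probes that rose. Their summed linear intensity was 492232 and 530910 in WT, 1064860 and 1021280 in TIA1 KO and 1213490 and 1242600 in TIAR KO MEF.

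Of 4 mesothelial markers, 3 were higher and 1, the brightest, was lower in TIAR KO than in WT MEF. Upk3b, Wt1 and Lrrn4 were above background in TIAR KO MEF alone, at least 143-fold, 16.3-fold and 4.91-fold higher than in WT MEF, while Msln, above background on all arrays and the brightest of the 4, fell in TIAR KO MEF by 1.62 on the log2 scale (SE 0.26, adjusted p = 0.025), where 3.39% of all probes rose and 2.37% fell. The summed linear intensity of these 4 markers was 90772.6 and 56698.3 in WT, 241955 and 209334 in TIA1 KO and 44258.7 and 41454.2 in TIAR KO MEF. Of 7 epithelial markers, 2 rose in TIA1 KO (Krt8 and Krt19) and 3 in TIAR KO MEF (Cdh1, Krt8 and Krt18), beside 2.18% and 3.39% of all probes that rose, and Epcam was above background on 1 array only. The part of these cell markers in the FGF values was not tested. Of the blood markers Ptprc and Emr1 were above background on no array and Cd14, the brightest, was down-regulated in TIAR KO MEF. Of the muscle markers Myog, Myod1 and Myf5 were above background on no array and Des was up-regulated in TIAR KO MEF. No endothelial or neural marker passed in either knock-out, and only 1 endothelial marker had an unadjusted p under 0.05 in each. Cdh5, Emcn and Gfap were above background on no array, and Kdr and Tubb3 were the brightest of these lists.

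**Figure D4:**
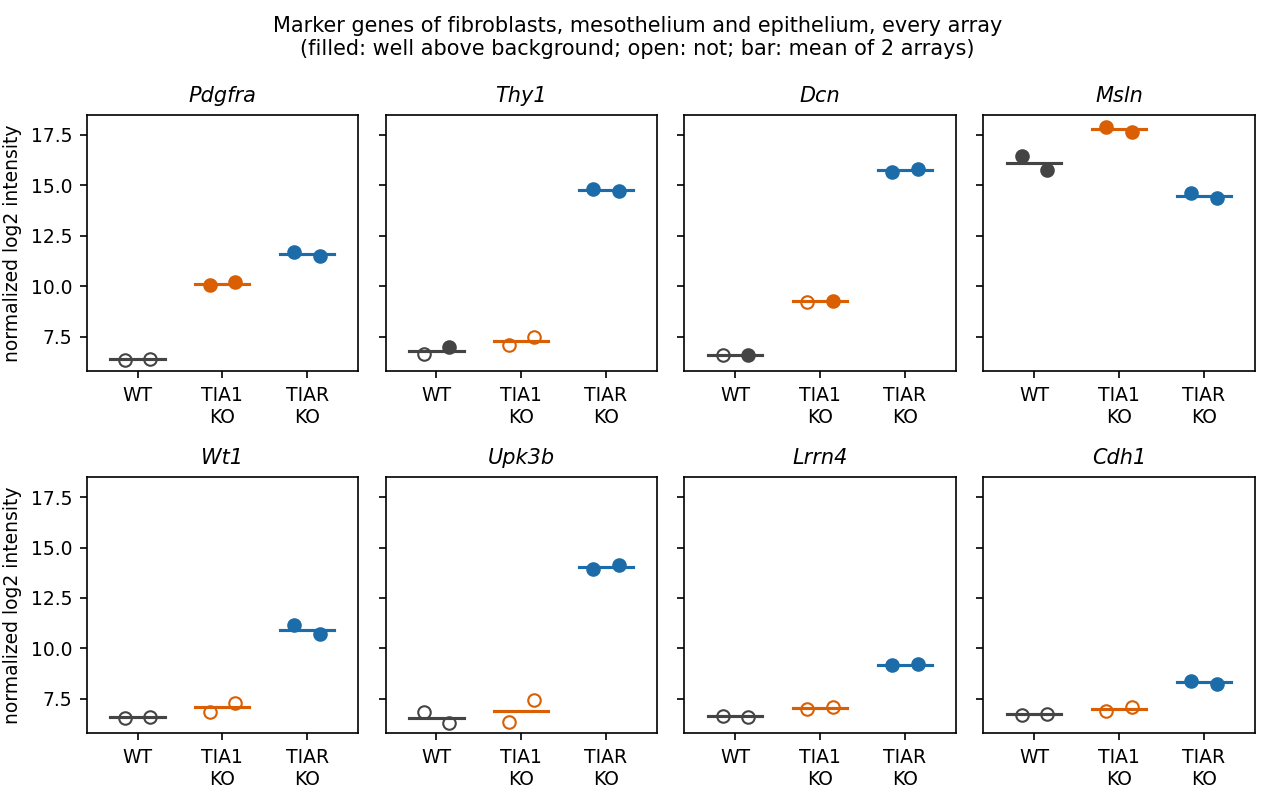
Normalized log2 intensity (vertical axis) of 3 fibroblast markers (Pdgfra, Thy1, Dcn), 4 mesothelial markers (Msln, Wt1, Upk3b, Lrrn4) and the epithelial marker Cdh1 on every array, with filled points well above background and bars at the mean of 2 arrays. Thy1, Wt1, Upk3b, Lrrn4 and Cdh1 lie higher in TIAR KO MEF than in both other groups, and Msln lies lower there (14.64 and 14.36 against 16.46 and 15.78 in WT).

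On the brightest probe of each targeted gene, both arrays of the line named for it lay below all others read. For Tia1 the gap was narrow (8.44 against 8.54). The brightest Tia1 probe read 10.72 and 8.54 in WT MEF, 7.87 and 8.44 in the TIA1 KO and 9.56 and 9.58 in the TIAR KO (TIA1 KO against WT -1.47 ± 0.79, adjusted p = 0.29). The brightest Tial1 probe read 13.22 in WT replicate 2, its spot in replicate 1 being marked as an outlier and dropped from the fit, 14.07 and 13.69 in TIA1 KO and 9.57 and 11.60 in TIAR KO MEF (TIAR KO against WT -2.63 ± 0.87, adjusted p = 0.2). Each had its lowest mean in the line named for it, without passing the test. By western blot and RT-PCR, the authors reported each protein and its mRNA to be absent from the line named for it.

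Genes whose intensities ran most like those of Fgf7 were sought among 11045 genes above background on both WT and both TIA1 KO arrays, by the root mean square distance over the 6 arrays after centring each probe. The 5 nearest were Btbd11 (0.20 on the log2 scale), Gdnf (0.23), Perp (0.29), 1110021L09Rik (0.54) and G6pc3 (0.54). 1110021L09Rik was above background on neither TIAR KO array, so that its distance rests in part on background levels. Gdnf, a growth factor for neurons and kidney, read 11.87 and 11.92 in WT MEF, 13.96 and 14.07 in the TIA1 KO and 7.45 and 7.41 in the TIAR KO. Perp, a gene of cell junctions and apoptosis, read 13.43 and 13.39, 14.32 and 14.46, and 7.97 and 8.26 in the same order.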

How the data were processed

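The authors deposited, per the file headers, the scanner output of 6 one-colour arrays: each spot's mean intensity and its local background median on a linear scale, from Feature Extraction 10.7.3.1. Normalized log2 values were deposited too. Intensities were corrected by normexp (offset 50), transformed to log2, put through cyclic loess (1 pass) and quantile normalization, and averaged over the spots of a probe, without control spots and spots marked as outliers. The deposited log2 values correlated with these values at 0.997 to 0.999 per array and served as an alternative. Their scale and centring were inferred from this comparison.

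Each comparison was fitted with limma (lmFit, eBayes) on its own 4 arrays over all 55681 probes, with Benjamini-Hochberg adjustment. A gene was read from its brightest probe by mean over the 6 arrays. A probe counted as well above background where 50% or more of its spots had that rating in the scanner output. Where the lower group was not on either array but the higher group was on both, the fold is bounded from below. The bound uses the lowest level rated above background on each array and is approximate. Probes without that rating could read higher, as Fgf1 did on TIA1 KO replicate 1 (8.99 against 8.03). Precision was limited by having 2 arrays per group, and log2 fold changes had a median standard error of 0.20, 0.17 and 0.20 for TIA1 KO against WT, TIAR KO against WT and TIAR KO against TIA1 KO MEF. Probe positions are those of the files (mm9). Promoters came from a RefSeq table of GRCm38.p6.

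All 10 genes were named, with every probe; of the other pathway genes those that passed and up to 3 others per list were named, and the 5 genes most like Fgf7. The genes, the pathway lists and the cell type markers (fibroblast, epithelial, endothelial, blood, muscle, mesothelial, neural) were chosen with earlier results of these data known. Alternatives changed background correction, scaling, probe filter, probe, fit and arrays. The fits were tested on simulated data. R 4.3.3 with limma 3.58.1 and Python 3.11.15 with pandas 2.3.3 and matplotlib 3.10.9 were used.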

Additional observations from a re-analysis of the deposited data

Results flagged for a closer look

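Genes of the FGF pathway that differed between the knock-outs, or lay on opposite sides of WT MEF in them, are collected here as values.

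Past both thresholds in the direct comparison (TIAR KO minus TIA1 KO, log2) were Fgf10 at -2.51, Fgf18 at 2.91, Fgfbp3 at -1.68, Sulf1 at -1.78, Sulf2 at -2.53 and Plcg1 at 1.19. Under alternative settings the difference passed in 9 of 15 for Fgfbp3 and in 7 of 16 for Plcg1. Fgf7 lay at -6.28, with all TIA1 KO arrays above and all TIAR KO arrays below those of WT MEF, and was not tested there because it had been chosen on the TIAR KO arrays. The comparison used limma over 55681 probes, and 3.35% of all probes passed. For Fgf10 and Fgf18 the result is descriptive, as the same TIAR KO arrays had led to the choice of Fgf7.

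For 3 further genes all arrays of one knock-out lay above and all arrays of the other below WT MEF, without passing the test of the difference; the same pattern was present in 6.61% of all probes. Fgf13 differed by 0.35 on the log2 scale (adjusted p = 0.27) with no array above background. Gab1, an adaptor, differed by 1.96 (adjusted p = 0.128). Spred1, a Sprouty-related inhibitor, differed by 0.91 (adjusted p = 0.072). Spots of the 2 overlapping Fgfr2 probes gave log2 differences of 0.18 and -1.21 between TIA1 KO and WT MEF, and those of Fgf18 2.26 and 1.58, the latter with no WT array and 1 TIA1 KO array above background.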

How the results depend on the processing

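In TIAR KO against WT MEF, Fgf7, Fgf10 and Fgf18, described there without a test, kept their direction under all alternatives run (15, 15 and 16), with log2 ranges of -5.69 to -4.57, -3.44 to -2.19 and 4.82 to 6.31. Calls in comparisons with TIA1 KO MEF held under some alternatives only: against WT, Fgf7 and Fgf18 kept their sign but passed in 9 of 15 and 9 of 16 (with the processed signal Fgf7 lay 0.43 below the median of all probes, -0.43 relative to it), and Fgf10 and Fgf18 between the knock-outs in 11 of 15 and 13 of 16. Where no cause is given it was not tested.

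In TIA1 KO against WT MEF, calls among all probes (1969), the 10 FGF genes (2) and the 64 other pathway genes (7) became, in that order, 0, 0 and 0 with the scanner's processed signal (27765 probes at an unadjusted p under 0.05, and a median of all probes of 1.98), 440, 0 and 3 when a fold above 2 was itself tested, and 671, 1 and 3 with a replicate block. Median scaling gave 16041 (1857 higher, 14184 lower) and 29 (4 higher, 25 lower) for all probes and the pathway and called Fgf1 higher and Fgfr1 and Fgfr3 lower in place of Fgf7 and Fgf18, all groups in 1 fit gave 3986 and 13 and added Fgfr3, the log2 values of the authors gave 1309 probes and, for the FGF genes, 1, only probes above background 12 and an intensity trend 11 for the pathway, and the second brightest probe 1 for the FGF genes. Median scaling, which set the median of all probes at -0.68, turned the sign of genes that passed neither with nor without it, among them Fgf5 (-0.12), Fgf10 (-0.97), Fgfr2 (-1.07) and Ext1 (-0.34), and of Fgfr1 (-1.20), Fgfrl1 (-0.42), Grb2 (-1.50), Hspg2 (-1.22) and Plcg1 (-1.45); relative to that median the last 5 were at -0.52, 0.26, -0.82, -0.54 and -0.77. Leaving out 1 array gave 0 to 10735, 0 to 3 and 0 to 20, with Fgf1 gained without TIA1 KO replicate 2 (2.30, adjusted p = 0.0105). The 0 arose without WT replicate 1 or 2 (7202 and 7415 at an unadjusted p under 0.05), and 10735 without TIA1 KO replicate 2.

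Between the knock-outs, the counts (1866, 3 with Fgf7 included although it was not tested, and 4) became 0, 0 and 0 with a replicate block (10684 at an unadjusted p under 0.05). Median scaling gave 8416 (7334 higher, 1082 lower) and 19 (18 higher, 1 lower) for all probes and the pathway (median of all probes 0.63), only probes above background 2925 and 8, all groups in 1 fit 3183, and testing the fold 409 and 0. For the pathway the processed signal gave 1, an intensity trend 8 and the second brightest probe 2. Leaving out 1 array gave 0 to 10086, 0 to 5 and 0 to 15, with 0 without TIAR KO replicate 1 or 2 (6318 and 6402 at an unadjusted p under 0.05).

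In TIAR KO against WT MEF, testing the fold lowered 3206 to 1016 and the pathway's 11 to 5, and the second brightest probe gave 7. Replicate numbers did not pair the arrays: deviations from the group means correlated at 0.08, 0.03 and -0.07 in the 3 comparisons. The adjusted p of Fgf7 in TIA1 KO MEF was 0.0724 with the replicate block and that of Fgf18 0.046.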
